A study of Mus musculus with 12 samples.

Results

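Hmgcs1, Idi1, Fdps, Fdft1, Sqle, Lss, Cyp51 and Dhcr7 are 8 enzymes of cholesterol synthesis, and their RNA was followed in mouse liver after concanavalin A (Con A). They were taken from the 11289 genes of the expression table by their symbols, and all 8 had a row and values above 0 in every mouse. The label under which they were grouped also names cholesterol uptake, but each of the 8 is a synthesis enzyme, so uptake genes are described here as a separate list. The C57BL/6J mice, male by the study's methods, formed 3 groups of 4. Control mice form the first group, and what was injected into them is not stated. Con A + PBS mice received 15 mg/kg of Con A (a lectin from jack bean that sets off T cells) through the tail vein and PBS intravenously 30 min later. Con A + hWJ-MSCs mice received the same dose of Con A and then 2000000 mesenchymal stromal cells of the human umbilical cord in place of PBS. Livers were collected after 24 h. The sample labels give these cell numbers and an age of 8 to 10 weeks, and the study's methods give other values for both.

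Cholesterol is built from acetyl-CoA through mevalonate, the isoprenoid farnesyl diphosphate, squalene and lanosterol, and the liver is a main site of this synthesis. The transcription factor SREBP2, encoded by Srebf2, is held in the endoplasmic reticulum by SCAP and INSIG proteins while sterols are abundant, and is released to raise the enzymes of the pathway and the LDL receptor when sterols fall. SREBP1, encoded by Srebf1, mainly drives the enzymes of fatty acid synthesis. The 8 enzymes cover both the part that makes isoprenoids for other lipids and proteins and the part that leads to sterols alone.

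SREBP2 binds sterol regulatory elements beside NF-Y, which binds the CCAAT box, and Sp1, which binds the GC box, so the promoters of the enzymes were read for those letters. RefSeq (GRCm38.p6) gave the 300 bases around the start of 5 of the 8 enzymes, from 250 bases before to 50 after it. Fdps, Fdft1 and Sqle had no entry in that table. The 250 bases before the start are shown for 3 enzymes, 5′ to 3′ on the strand of the gene. Hmgcs1 (chr13:119690101-119690350, plus strand) was chosen as the 1 promoter of the 5 with the exact sterol element letters TCACNCCAC. Cyp51 (chr5:4104698-4104947, minus strand) was chosen because its RNA rose after Con A. Dhcr7 (chr7:143829964-143830213, plus strand, the nearest of 3 start sites) was chosen because its RNA did not overlap between the Con A groups. The start used lay 588 bases from that of the deposited row in Dhcr7, 111 in Hmgcs1 and 49 in Cyp51. The Dhcr7 window lies within the span of its deposited transcript. Capitals mark the letters TCACNCCAC of the sterol regulatory element and CCAAT of the CCAAT box on either strand.
Hmgcs1: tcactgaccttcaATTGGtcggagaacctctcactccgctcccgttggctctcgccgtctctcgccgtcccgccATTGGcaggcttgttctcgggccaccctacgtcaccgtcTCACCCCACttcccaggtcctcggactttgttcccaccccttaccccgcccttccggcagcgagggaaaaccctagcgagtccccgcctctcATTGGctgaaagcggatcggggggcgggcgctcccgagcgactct
Cyp51: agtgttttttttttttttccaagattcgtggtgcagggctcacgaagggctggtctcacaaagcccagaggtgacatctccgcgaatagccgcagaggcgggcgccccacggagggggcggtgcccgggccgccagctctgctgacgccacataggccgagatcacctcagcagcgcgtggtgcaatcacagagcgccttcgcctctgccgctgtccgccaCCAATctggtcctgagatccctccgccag
Dhcr7: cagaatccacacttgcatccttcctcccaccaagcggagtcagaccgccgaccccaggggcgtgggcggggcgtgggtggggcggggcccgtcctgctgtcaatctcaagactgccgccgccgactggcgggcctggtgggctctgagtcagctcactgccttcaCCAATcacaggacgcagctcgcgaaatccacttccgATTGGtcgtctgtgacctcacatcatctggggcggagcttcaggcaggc
The letters TCACNCCAC stood at -137 to -129 from the start of Hmgcs1 and were found in 1 of the 5 promoters, against 1.24% of the 32851 promoters in the table. Other forms of the sterol element were not searched, so its absence from the other promoters is not shown. CCAAT was present in 5 of 5, against 37.4% of all promoters, and the GC box GGGCGG in 5 of 5, against 35.7%. The E-box CACGTG was in 0 of 5, against 7.15%. These matches are letters within the window and carry no measurement of binding.

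The authors deposited 1 whole number for each gene in each mouse, here called the score, which had already been scaled so that all mice share the same distribution. Its median was 352 in every mouse, the totals lay between 17649654 and 17657159, and 10 genes per mouse shared the largest value of 341028. Sequencing depth is therefore unknown, equal scores in different mice can come from the shared scale, and a correction for gene length is not stated. Levels were therefore compared between mice and not between genes, apart from the marker sums given further on, which add the scores of several genes. Con A + PBS mouse 4 stood apart from its group, with a root mean square difference from the group mean of 0.483 on the log2 scale over all genes, against 0.242 to 0.381 in the other 11 mice. Hmgcs1, Idi1, Fdps and Lss also overlap annotated genes without values of their own here, and whether their reads were kept apart is not stated. Each enzyme is given with and without Con A + PBS mouse 4. All 12 listed hepatocyte markers had a row and were above 0 in every mouse. Their summed score is not given, because the highest of them are held by the shared scale: Alb was at 341028 and Cps1 at 147960 in all 12 mice. After Con A, 5 of the 12 were called lower by the rule given further on, beside 19.2% of all genes, with log2 fold changes of -2.44 for Ass1, -1.73 for Apoa1, -1.55 for Ttr, -1.34 for F2 and -0.68 for Apoh. Fgb was the 1 called higher, at 1.16, beside 19.5% of all genes, and was at the largest value of the table in all 8 mice given Con A. The other 6, Hnf4a among them, were not called.

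After Con A, 2 of the 8 enzymes rose and none fell, while 19.5% of all genes rose and 19.2% fell. Sqle, the squalene epoxidase, rose 1.75-fold, and Cyp51, which removes a methyl group from lanosterol, rose 1.85-fold. Both calls rest on single mice: that of Cyp51 was lost without Con A + PBS mouse 4 or without control mouse 1 or 2, and that of Sqle without control mouse 2. When hWJ-MSCs followed Con A, each of the 8 had a lower mean than with PBS, with log2 fold changes of -0.05 to -0.84, and none passed the test. Without Con A + PBS mouse 4, 6 of the 8 had a lower mean. Mice of the control and Con A + PBS groups differed widely in these enzymes, and the same mice were high or low in several of them at once. A plot of the scores by mouse shows this for each enzyme.

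**Figure D1:**
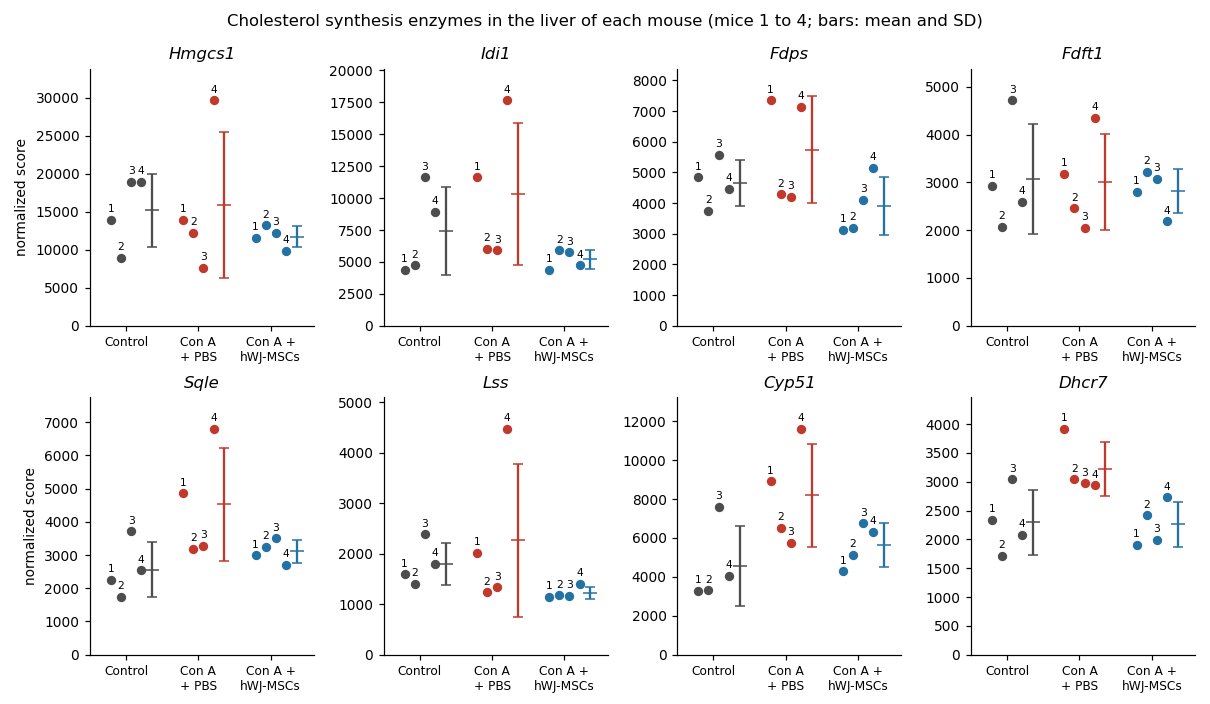
Normalized score of each of the 8 enzymes (y axis, starting at 0) in the 3 groups (x axis), with 1 point per mouse numbered 1 to 4 and bars for mean and SD. In the Con A + PBS group the scores of Hmgcs1 run from 7616 to 29687, while with hWJ-MSCs they run from 9867 to 13230.

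Hmgcs1 (ENSMUSG00000093930, chr13:119690462-119708086, plus strand, GRCm38) encodes the cytosolic synthase that makes HMG-CoA at the entry to the mevalonate pathway. Hmgcs1 scored 13948, 8908, 18931 and 18931 in control mice 1 to 4 (15180 ± 4796, mean and SD, as for all groups here) and 13948, 12219, 7616 and 29687 in Con A + PBS mice 1 to 4 (15868 ± 9593). With hWJ-MSCs, Hmgcs1 scored 11601, 13230, 12219 and 9867 (11729 ± 1411). Con A + PBS mouse 4 was the highest of all 12 mice and mouse 3 of the same group the lowest, so the groups overlapped throughout. The mean score was slightly higher after Con A than in control, while the mean of log2(score + 1), which the fold change uses, was slightly lower. The log2 fold change after Con A was -0.05 (95% confidence interval -0.81 to 0.71, adjusted p = 0.911, limma with Benjamini-Hochberg adjustment over all genes, as for every adjusted p here). With hWJ-MSCs against PBS it was -0.26 (-1.02 to 0.49, adjusted p = 0.618). Without Con A + PBS mouse 4 these values were -0.41 and 0.10. In bulk liver RNA, fewer cells of a type and less RNA per cell cannot be told apart, for this gene and the others.

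Idi1 (ENSMUSG00000058258, chr13:8885501-8892451, plus strand) encodes the isomerase that interconverts the building blocks isopentenyl and dimethylallyl diphosphate. Idi1 scored 4385, 4747, 11614 and 8917 in the control mice (7416 ± 3473) and 11614, 6044, 5923 and 17671 in the Con A + PBS mice (10313 ± 5578). With hWJ-MSCs, Idi1 scored 4385, 5923, 5751 and 4747 (5202 ± 752). All 4 mice given hWJ-MSCs lay at or below the lowest score of the Con A + PBS group, 5923, which 1 mouse of each group shared. The log2 fold change after Con A was 0.44 (-0.37 to 1.25, adjusted p = 0.330), within the spread between mice. That with hWJ-MSCs against PBS was -0.84 (SE 0.37, -1.65 to -0.03), with an unadjusted p of 0.0422, an adjusted p of 0.130 and a two-sided exact permutation p of 0.0571. Leaving out Con A + PBS mouse 4 moved these differences to 0.13 and -0.53 (adjusted p = 0.763 and 0.321).

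Fdps (ENSMUSG00000059743, chr3:89093592-89101967, minus strand) encodes farnesyl diphosphate synthase, whose product is shared by sterols, dolichol and prenylated proteins. Fdps scored 4840, 3751, 5576 and 4466 in the control mice (4658 ± 761) and 7356, 4291, 4202 and 7140 in the Con A + PBS mice (5747 ± 1736). With hWJ-MSCs, Fdps scored 3130, 3200, 4113 and 5144 (3897 ± 944). Con A + PBS mice 1 and 4 were above all other mice, and mice 2 and 3 lay among the controls. Fdps differed by 0.27 on the log2 scale after Con A (-0.22 to 0.75, adjusted p = 0.330) and by -0.54 with hWJ-MSCs against PBS (-1.03 to -0.05, unadjusted p = 0.0327, adjusted p = 0.111). The first was 0.13 without Con A + PBS mouse 1 and 0.15 without mouse 4, and the second was -0.40 and -0.42.

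Fdft1 (ENSMUSG00000021273, chr14:63145153-63177793, minus strand) encodes squalene synthase, the first step that serves sterols alone. Fdft1 scored 2922, 2066, 4720 and 2594 in the control mice (3076 ± 1152) and 3184, 2457, 2046 and 4350 in the Con A + PBS mice (3009 ± 1010). With hWJ-MSCs, Fdft1 scored 2805, 3216, 3070 and 2188 (2820 ± 454). The groups overlapped widely, with control mouse 3 and Con A + PBS mouse 4 high. Its log2 fold changes were -0.02 after Con A (-0.60 to 0.55, adjusted p = 0.952) and -0.05 with hWJ-MSCs against PBS (-0.62 to 0.52, adjusted p = 0.913), the smallest of the 8 in both comparisons. With Con A + PBS mouse 4 left out they were -0.22 and 0.15. The gene overlaps Ctsb on the opposite strand, and whether reads were counted by strand is not stated. Ctsb itself differed by -0.54 on the log2 scale after Con A (adjusted p = 0.0340), which did not reach a 1.5-fold change.

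Sqle (ENSMUSG00000022351, chr15:59315077-59328958, plus strand) encodes squalene epoxidase, which adds oxygen to squalene and is a rate-limiting step of the pathway. Its row carries a transcript that GENCODE M21 lists as a retained intron with 9 exons, and whether the score stands for that transcript or for the whole gene is not stated. Sqle scored 2256, 1736, 3713 and 2540 in the control mice (2561 ± 837) and 4860, 3180, 3287 and 6796 in the Con A + PBS mice (4531 ± 1694). With hWJ-MSCs, Sqle scored 2990, 3242, 3506 and 2714 (3113 ± 339). Control mouse 3 was above Con A + PBS mice 2 and 3, so the groups overlapped, while the other 3 controls were below every Con A + PBS mouse. Sqle rose by 0.81 on the log2 scale after Con A (SE 0.26, 0.25 to 1.36, adjusted p = 0.0177, two-sided exact permutation p = 0.0857). The call held without Con A + PBS mouse 4, at 0.59 with an adjusted p of 0.0465, and was lost without control mouse 2, at an adjusted p of 0.0569. With hWJ-MSCs the difference from PBS was -0.48 (-1.03 to 0.08, adjusted p = 0.205), or -0.26 without Con A + PBS mouse 4, and that from control 0.33 (-0.23 to 0.89, adjusted p = 0.327).

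Lss (ENSMUSG00000033105, chr10:76531588-76535568, plus strand) encodes lanosterol synthase, which closes the sterol rings. Its row carries a processed transcript of 4 exons, and here too the sources do not say whether the score is per gene or per transcript. Lss scored 1592, 1406, 2380 and 1797 in the control mice (1794 ± 422) and 2014, 1236, 1337 and 4466 in the Con A + PBS mice (2263 ± 1509). With hWJ-MSCs, Lss scored 1146, 1174, 1164 and 1400 (1221 ± 120). The mean of the Con A + PBS group rested on mouse 4, and mice 2 and 3 of that group were below all controls. The log2 fold change after Con A was 0.16 (-0.55 to 0.86, adjusted p = 0.698) and became -0.24 without mouse 4. All 4 mice given hWJ-MSCs were below all 4 controls, the closest pair being 1400 and 1406, with a log2 fold change of -0.53 (-1.24 to 0.17). The exact permutation p of that difference was 0.0286, the smallest that 4 against 4 mice can give, and the limma adjusted p was 0.211. Against PBS the difference was -0.69 (-1.40 to 0.02, adjusted p = 0.153), and it was -0.29 without Con A + PBS mouse 4 (adjusted p = 0.342).

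Cyp51 (ENSMUSG00000001467, chr5:4081145-4104746, minus strand) encodes lanosterol 14-demethylase, the first step after lanosterol. Cyp51 scored 3268, 3318, 7616 and 4040 in the control mice (4560 ± 2067) and 8908, 6536, 5744 and 11601 in the Con A + PBS mice (8197 ± 2637). With hWJ-MSCs, Cyp51 scored 4285, 5138, 6756 and 6321 (5625 ± 1125). Control mouse 3 was again the exception, above 2 of the 4 Con A + PBS mice, and the other 3 controls were below all of them. Cyp51 rose by 0.88 on the log2 scale after Con A (SE 0.29, adjusted p = 0.0188, two-sided exact permutation p = 0.0857). Without Con A + PBS mouse 4 the value was 0.70 with an adjusted p of 0.0529, above the threshold of 0.05, and the call was also lost without control mouse 1 and without control mouse 2. The difference with hWJ-MSCs was -0.51 against PBS (-1.13 to 0.11, adjusted p = 0.220), or -0.33 without Con A + PBS mouse 4, and 0.37 against control (-0.24 to 0.99, adjusted p = 0.317). Akap9, which overlaps Cyp51 on the opposite strand, differed by 0.02 after Con A (adjusted p = 0.902).

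Dhcr7 (ENSMUSG00000058454, chr7:143829626-143848410, plus strand) encodes 7-dehydrocholesterol reductase, which makes cholesterol in the last step of one branch of the pathway. Dhcr7 scored 2340, 1717, 3043 and 2078 in the control mice (2294 ± 561) and 3914, 3043, 2971 and 2936 in the Con A + PBS mice (3216 ± 467). With hWJ-MSCs, Dhcr7 scored 1905, 2416, 1988 and 2727 (2259 ± 384). All 4 mice given hWJ-MSCs were below all 4 given PBS. That difference was -0.51 on the log2 scale (SE 0.18, -0.90 to -0.13), with an exact permutation p of 0.0286 and an adjusted p of 0.0677 in limma. After Con A, Dhcr7 was higher by 0.51 (0.12 to 0.89, adjusted p = 0.0279), a 1.42-fold difference that passed the adjusted p but not the 1.5-fold threshold, and control mouse 3 equalled Con A + PBS mouse 2. The 2 values without Con A + PBS mouse 4 were close to these, at 0.55 after Con A and -0.55 with hWJ-MSCs. The mice given hWJ-MSCs differed from control by -0.01 (-0.39 to 0.38, adjusted p = 0.980).

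Con A against control asks what acute T cell injury does to these transcripts. A gene was called when its adjusted p was below 0.05 and its fold change above 1.5. By that rule 2 of 8 enzymes were called higher, beside 19.5% of all genes, and 0 of 8 were called lower, beside 19.2% of all genes, so the share of calls was near the background. At an unadjusted p below 0.05 in limma 0 were lower, beside 28.2% of all genes, and 3 were higher (Sqle, Cyp51 and Dhcr7), beside 32.5%. The same 3 passed the adjusted p alone, beside 29.5% of all genes. The median log2 fold change of the 8 was 0.35, against 0.05 over all genes, and 6 of 8 were above 0. None of the 8 had groups without overlap, although 27.1% of all genes were higher and 23.4% lower without overlap. Without Con A + PBS mouse 4 the median was 0.14 and 1 enzyme, Sqle, was called higher, beside 18.3% of all genes. Without control mouse 3 all 8 fold changes were above 0, the median was 0.51 and 3 enzymes were called higher (Sqle, Cyp51 and Dhcr7), beside 19.9%. The number called higher was 1 without control mouse 1, beside 18.3%, and 0 without control mouse 2, beside 19.7%.

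hWJ-MSCs against PBS asks whether the cells altered the livers of mice that had received Con A. Of the 8 enzymes 0 were called higher, beside 4.20% of all genes, and 0 lower, beside 4.38%. At an unadjusted p below 0.05 in limma, 3 of 8 were lower (Idi1, Fdps and Dhcr7), beside 16.6% of all genes. That number was 1 when Con A + PBS mouse 1 or 4 or Con A + hWJ-MSCs mouse 1 or 2 was left out, beside 12.7% to 14.6% of all genes in those fits. It was 5 without Con A + PBS mouse 2, beside 17.6%, and 6 without Con A + PBS mouse 3, beside 15.2%. The 8 fold changes were all below 0 with a median of -0.51, while the median of all genes was 0.00. Dhcr7 was the 1 enzyme of 8 whose groups did not overlap, beside 11.6% of all genes lower without overlap. The value of -0.51 also rests on the Con A + PBS mice, which serve in both comparisons. Without mouse 4 of that group 6 of 8 were below 0 and the median was -0.31. Without Con A + hWJ-MSCs mouse 4, 7 of 8 were below 0 and Dhcr7 was called lower, beside 5.31% of all genes. The number of genes called in this comparison, 969, depended on single mice and was 7 without Con A + PBS mouse 1 or Con A + hWJ-MSCs mouse 3, 18 without Con A + hWJ-MSCs mouse 2 and 1575 without Con A + PBS mouse 2. The missed thresholds do not show that the enzymes were alike in both groups, since the intervals reach from -1.65 in Idi1 to 0.52 in Fdft1.

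Against control, the mice given Con A and hWJ-MSCs had 0 of 8 enzymes called higher, beside 13.6% of all genes, and 0 called lower, beside 13.1%. At an unadjusted p below 0.05 in limma 0 were higher, beside 27.1% of all genes, and 0 lower, beside 22.2%. The fold changes ran from -0.53 in Lss to 0.37 in Cyp51, with 6 of 8 below 0 and a median of -0.17, against 0.04 over all genes. Lss was the 1 enzyme without overlap, beside 17.3% of all genes lower without overlap. With control mouse 3 left out, 4 of 8 were below 0, the median was -0.0025 and Cyp51 was called higher, beside 14.2% of all genes. With control mouse 2 left out, 6 of 8 were below 0 and the median was -0.31.

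**Figure D2:**
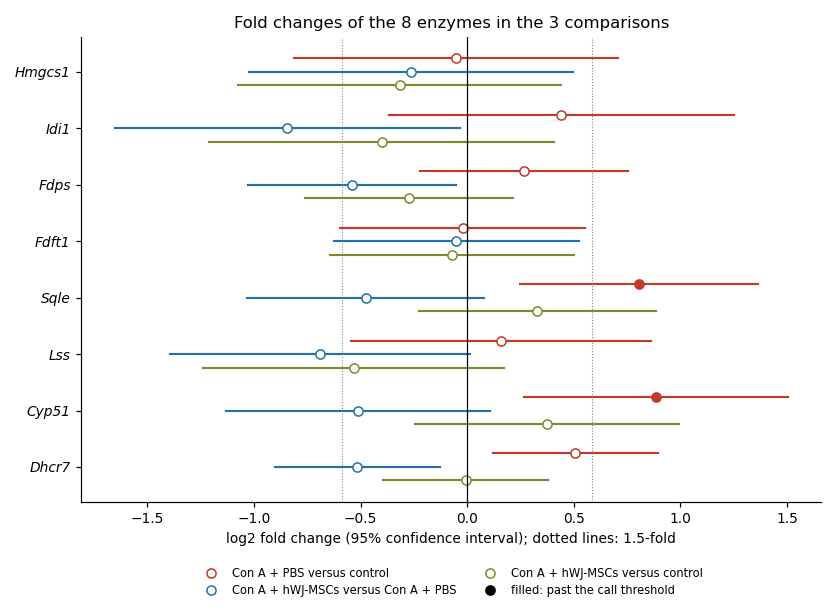
Log2 fold change (x axis) of each of the 8 enzymes (y axis) in the 3 comparisons, with 95% confidence intervals from limma as lines, filled points for calls and dotted lines at a 1.5-fold change. The filled points are Sqle (0.81) and Cyp51 (0.88) after Con A, and all 8 points of hWJ-MSCs against PBS lie below 0.

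The spread between mice of 1 group was shared by the enzymes. Control mouse 3 had the highest score of its group in 8 of 8 enzymes, level with mouse 4 in Hmgcs1, although it was the highest in 22.8% of all genes. Control mouse 2 was the lowest in 6 of 8, beside 24.5% of all genes. Con A + PBS mouse 4 was the highest of its group in 6 of 8, and this mouse was also the highest in 41.2% and the lowest in 37.4% of all genes. Averaged over the 8 enzymes, the difference from the mean of its own group was 0.55 on the log2 scale for control mouse 3, -0.45 for control mouse 2 and 0.66 for Con A + PBS mouse 4. The same mice stood out in 11 further enzymes of the pathway, where control mouse 3 was the highest in 8 and Con A + PBS mouse 4 in 10.

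The mice given hWJ-MSCs were closer together in most of the 8 enzymes. The further enzymes of the pathway each had their smallest SD of the score in this group as well. The SD of log2(score + 1) was smaller in this group than in control in 7 of 8 enzymes, beside 56.1% of all genes, and smaller than in Con A + PBS in 7 of 8, beside 51.8%. The median SD of the 8 was 0.48 in control mice, 0.50 after Con A with PBS and 0.23 with hWJ-MSCs, against 0.22, 0.21 and 0.20 over all genes. Fdps was the exception against control and Dhcr7 the exception against Con A + PBS. These counts were not tested, since the enzymes share their mice. The control SDs include mouse 3, the highest of its group in 8 of 8 enzymes, and the Con A + PBS SDs include mouse 4, the highest in 6 of 8. The SDs were not recomputed without these mice, so the smaller spread with hWJ-MSCs may rest on them.

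**Figure D3:**
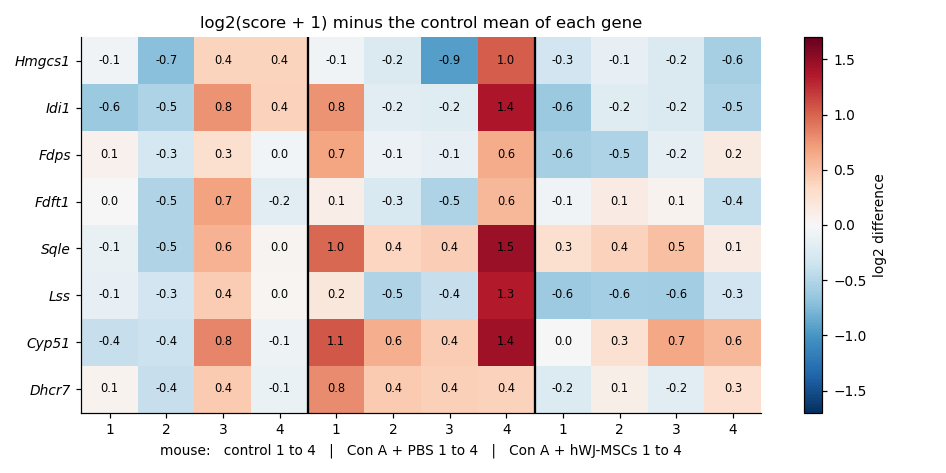
Log2(score + 1) of the 8 enzymes (rows) in the 12 mice (columns) minus the control mean of each gene, with red for higher and blue for lower values. Control mouse 3 is red in all 8 rows, Con A + PBS mouse 4 is dark red in Idi1, Sqle, Lss and Cyp51, and the 4 mice given hWJ-MSCs are blue in Lss.

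Of 11 other cholesterol synthesis enzymes 6 fell and 0 rose after Con A, with a median log2 fold change of -0.77. These counts, and those of the lists that follow, stand beside the 19.2% of all genes called lower and 19.5% called higher after Con A. Tm7sf2, a sterol reductase after the Cyp51 step, fell by 1.64 (adjusted p = 1.13e-06), from 3496 ± 352 to 1129 ± 191. Sc5d, the desaturase that makes the substrate of Dhcr7, fell by 1.54 (adjusted p = 4.67e-06), from 9598 ± 780 to 3334 ± 605. Acat2, the thiolase before Hmgcs1, fell by 1.00, and the mevalonate pathway kinase Pmvk fell by 0.89. Ebp, a sterol isomerase, fell by 0.78. These 19 enzymes together held 2 that rose, 6 that fell and 11 that passed neither way, with a median of -0.02. The unequal change of the steps was not tested as a group.

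With hWJ-MSCs against PBS, 0 of the 11 were called, beside 4.38% of all genes called lower and 4.20% called higher, and their median was -0.18. At an unadjusted p below 0.05 in limma 2 of the 11 were lower, beside 16.6% of all genes, and 1 was higher, beside 18.0%. Against control, the same 11 had 6 called lower in mice given hWJ-MSCs, beside 13.1% of all genes, and 0 called higher, beside 13.6%. The log2 fold change was then -1.45 for Pmvk, -1.31 for Acat2, -1.52 for Tm7sf2 and -1.54 for Sc5d. In the plot in pathway order, Cyp51 and Tm7sf2 are the only neighbouring steps called in opposite directions after Con A.

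**Figure D4:**
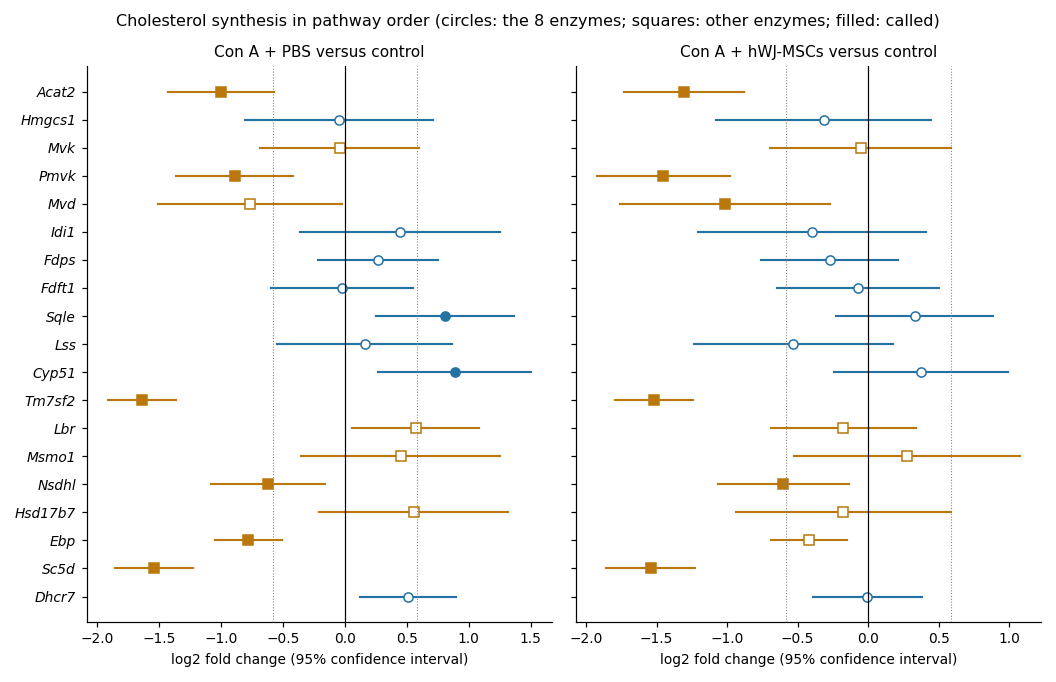
Log2 fold change (x axis) of 19 cholesterol synthesis enzymes in the order of the pathway (y axis, from Acat2 to Dhcr7), after Con A with PBS (left) and with hWJ-MSCs (right), each against control, with 95% confidence intervals from limma; circles are the 8 enzymes, squares the 11 others, and filled symbols are calls. After Con A, Cyp51 (0.88) is followed by Tm7sf2 (-1.64), and Sc5d (-1.54) is followed by Dhcr7 (0.51, open).

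Srebf2, which encodes the activator of these enzymes, scored 1371 ± 296 in control mice, 1694 ± 229 after Con A with PBS and 1338 ± 82.0 with hWJ-MSCs. Its log2 fold changes of 0.32 after Con A (adjusted p = 0.0851) and -0.33 with hWJ-MSCs against PBS (adjusted p = 0.136) passed no threshold. Of 15 regulators of the SREBP pathway 1 rose and 3 fell after Con A, with a median of -0.07. Srebf1 fell by 2.42 (adjusted p = 3.73e-07), from 6228 ± 828 to 1165 ± 148. The 2 INSIG genes, which encode the proteins that retain SREBP in the membrane, changed in opposite directions: Insig1 fell by 1.51 (adjusted p = 0.00107) and Insig2 rose by 1.24 (adjusted p = 5.39e-05). Prkaa2, a catalytic subunit of the energy sensor AMPK, fell by 0.86. With hWJ-MSCs against PBS 0 of the 15 were called, beside 4.38% of all genes lower and 4.20% higher, while at an unadjusted p below 0.05 in limma 6 were lower, beside 16.6%, and 1 was higher, beside 18.0%. Against control, the log2 fold changes with hWJ-MSCs were -2.35 for Srebf1, -1.54 for Insig1 and 0.82 for Insig2.

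Uptake is the other source of cell cholesterol. Among 12 genes of cholesterol uptake and lysosomal release 1 rose and 3 fell after Con A, with a median of 0.03. Npc2, a lysosomal cholesterol carrier, rose by 0.65 on the log2 scale. Mylip, the ubiquitin ligase that degrades the LDL receptor, fell by 1.60, Lipa, the lysosomal acid lipase that frees cholesterol from its esters, fell by 1.08, and Stard4, a cytosolic sterol carrier, fell by 0.85. In the comparison of hWJ-MSCs with PBS 0 of 12 were called, beside 4.38% of all genes lower and 4.20% higher, and at an unadjusted p below 0.05 in limma 2 were lower, beside 16.6%, and 0 higher, beside 18.0%.

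Of 9 genes of efflux and esterification 3 were called higher after Con A, beside 19.5% of all genes, and 3 lower, beside 19.2%. Abca1, which exports cholesterol to lipid-poor apolipoprotein, rose by 1.77 after Con A (adjusted p = 0.000625), from 2490 ± 745 to 8990 ± 4995. With hWJ-MSCs Abca1 scored 3034 ± 972, lower than with PBS at a log2 fold change of -1.48 (adjusted p = 0.0247), the 1 call among the 9 in that comparison, beside 4.38% of all genes called lower. It held without Con A + PBS mouse 4, at -1.14, and was lost without Con A + PBS mouse 1, Con A + hWJ-MSCs mouse 2 or Con A + hWJ-MSCs mouse 3. Nceh1, a cholesterol ester hydrolase, rose by 1.30 after Con A. The sterol exporters of bile, Abcg5 and Abcg8, had log2 fold changes of -1.05 and -1.06 and were called lower. Ch25h, which makes 25-hydroxycholesterol, an oxysterol that restrains SREBP processing, was listed at 0 in 3 control mice and 4 in the other, at 370 to 415 in Con A + PBS mice and at 61 to 220 with hWJ-MSCs.

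The branches that use farnesyl diphosphate for other products were called in 0 of 8 genes after Con A, with a median of 0.08, and in 0 of 8 with hWJ-MSCs against PBS, beside 4.38% of all genes lower and 4.20% higher. At an unadjusted p below 0.05 in limma 1 was then higher, beside 18.0%, and 0 lower, beside 16.6%. All 9 lipogenesis genes driven by SREBP1, which encode 8 enzymes and the regulator Thrsp, fell after Con A, beside 19.2% of all genes, with a median of -2.47. The log2 fold changes named here were -4.67 for Thrsp, an inducer of lipogenesis, -3.40 for the acetyl-CoA synthetase Acss2, -3.31 for the desaturase Scd1, -3.13 for the fatty acid synthase Fasn and -2.47 for the elongase Elovl6. Scd1 was at the largest value of the table in 3 control mice, so its difference is limited by the scale. With hWJ-MSCs against PBS 0 of these 9 were called, beside 4.38% of all genes lower and 4.20% higher, and 2 were lower at an unadjusted p below 0.05 in limma, beside 16.6%, with 0 higher, beside 18.0%.

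**Figure D5:**
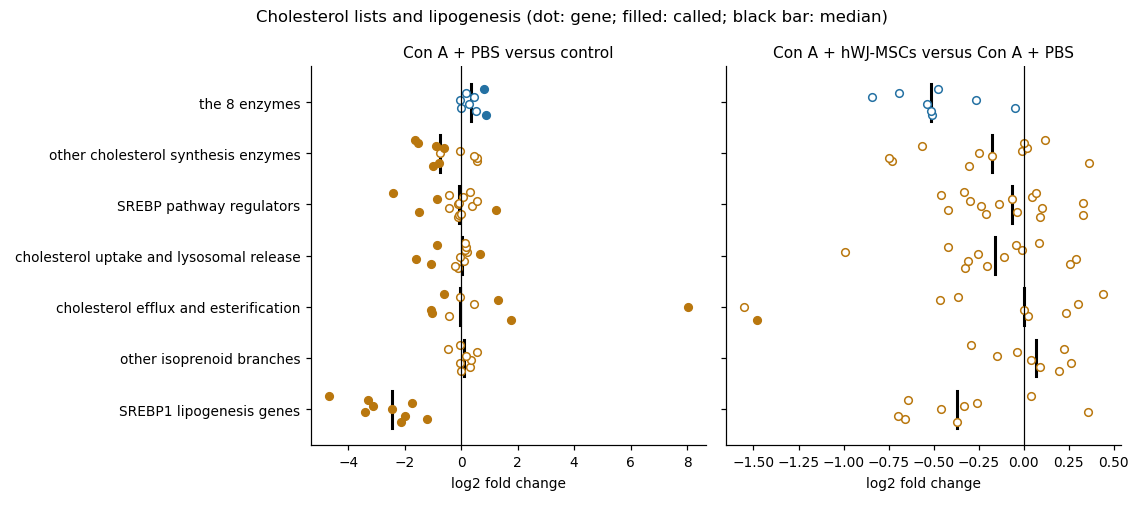
Log2 fold change (x axis) of each gene of 7 lists (y axis) after Con A (left) and with hWJ-MSCs against PBS (right, another x scale), with filled dots for calls and a black bar for the median of the list. After Con A the 8 enzymes have a median of 0.35, the other synthesis enzymes of -0.77 and lipogenesis of -2.47; the dot at 8.03 is Ch25h, listed at 0 in 3 control mice.

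The genes whose profile over the 12 mice was most like the mean profile of the 8 enzymes were the stress-response transcription factor Atf4, Srebf2, the membrane protein gene Tmem41b, the adaptor gene Shb and Mfge8, which encodes a secreted protein that bridges phagocytes to dying cells. Likeness was the root mean square difference on the log2 scale after centring on the control mean, which was 0.238, 0.239, 0.241, 0.242 and 0.243 for these 5 and 0.580 for the median gene. The members themselves lay between 0.245 in Fdps and 0.438 in Cyp51, at ranks 6 and 2370 among all genes. The measure also favours genes that change little, and shared regulation was not tested.

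Markers of other cell types moved with Con A in the same livers, and their counts stand beside 19.5% of all genes called higher and 19.2% called lower. Of 8 listed neutrophil markers 7 had a row, all 7 were called higher after Con A, and their summed score was 1090 to 5035 in control mice, 74003 to 341956 after Con A with PBS and 58867 to 74423 with hWJ-MSCs. Lcn2, which liver cells also make, accounts for most of that sum and reached the largest value of the table in Con A + PBS mouse 4. The other 6 summed to 70 to 157, 928 to 1940 and 829 to 1741. Of 10 T cell markers 3 had a row and were called higher, with sums of 31 to 66, 208 to 359 and 180 to 220. These 3 were at or below 32 in every control mouse, while every gene of the table reached 64 in at least 2 mice. They thus had a row only through mice given Con A, and their calls as higher are no independent result. The same held for most of the 6 neutrophil markers other than Lcn2. Of 11 macrophage and monocyte markers 10 had a row, 5 called higher and 5 lower, with sums of 3403 to 5134, 6221 to 7497 and 3016 to 4869. The higher sum after Con A lay in Cd14, and without Cd14 the sums were 3348 to 5074, 2037 to 2408 and 1221 to 2794, so both Con A groups were then below every control mouse. Of 8 sinusoidal endothelial markers 1 was higher and 5 lower, with sums of 3226 to 4569, 1642 to 2300 and 1968 to 2568. Of 8 proliferation markers 3 had a row and were called higher, with sums of 110 to 328, 209 to 529 and 284 to 467, and of the 12 hepatocyte markers 1 was higher and 5 lower. None of these markers was at 0 in all 12 mice, and their part in the results for the 8 enzymes was not tested.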

How the data were processed

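Poly-A libraries of liver RNA from 12 mice were read by 150-bp paired-end sequencing. Each mouse was assigned to its group from the sample labels, and its column was matched by name. The submitters' processing notes name Bowtie2 2.2.1, RSEM 1.2.18 and mm10 without roles, the study's methods name DESeq2 for its comparisons, and the normalization is not given in the sources used here. The deposited values are scores, whole numbers that the authors had normalized between mice before deposit, and are no raw counts. Each of the 11289 genes reached 64 in at least 2 mice, so genes of lower score had been left out. No counting error can be given.

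With limma 3.58.1 (R 4.3.3), 1 linear model without covariates was fitted to log2(score + 1) of 12 mice by lmFit, followed by eBayes with a trend. Calls needed a Benjamini-Hochberg adjusted p below 0.05 over all genes and a fold change above 1.5. The mice are separate animals. Two-sided exact permutation tests, summaries, motif searches and plots were made in Python 3.11.15 (numpy 2.4.6, scipy 1.17.1, pandas 2.3.3, matplotlib 3.10.9). The fit was tested on simulated data. Positions of 6 of the 8 enzymes had the same ends in GENCODE M21.

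The members, lists and tests were chosen with earlier results of these data known. Named beside the 8 enzymes were, per list and comparison (Con A against control, and hWJ-MSCs against PBS), at most the 5 called genes with the largest change, plus Srebf2, Insig1 and the 5 genes nearest in pattern. Ctsb and Akap9 were named as overlapping genes. Outside that rule, and after their values were seen, the 6 called hepatocyte markers and Alb, Cps1, Hnf4a, Lcn2 and Cd14 were named. A few list genes were left out and are not analysed here. The fit was repeated with a pseudocount of 10, quantile normalization, median centring, a filter at a mean score of 100, no trend, a robust variance, only the 8 mice compared, a replicate block and each mouse left out, and calls were remade with the unadjusted p, a fold change above 2 and no fold threshold. A count test was planned for raw counts only and was not run.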

Additional observations from a re-analysis of the deposited data

Results flagged for a closer look

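Each enzyme was examined in each group for a mouse far from the other 3, which makes 24 groups of 4 mice, and chance alone would mark about 1 in 20. By Dixon's ratio of gap to range, taken on log2(score + 1), and its 95% critical value, 2 groups were marked. Lss in Con A + hWJ-MSCs mouse 4 scored 1400 against 1146 to 1174 in the other 3, a ratio of 0.879. Dhcr7 in Con A + PBS mouse 1 scored 3914 against 2936 to 3043 in the other 3, a ratio of 0.876. Neither mouse is the one that stood apart over all genes.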

How the results depend on the processing

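Of 552 alternative fold changes of the 8 enzymes, 524 kept their direction and their side of the threshold, 6 lost a call, 5 gained one and 17 changed sign, all 17 with 1 mouse left out. Many of the alternatives cannot move a fold change. These are the call rules, the variance settings, the replicate block, median centring, the score filter, the fit of only the 8 mice compared and each mouse left out of the group not compared. The 524 are therefore no measure of stability. Those with a change of sign ranged, over each mouse left out, from -0.41 to 0.24 for Hmgcs1, -0.22 to 0.21 for Fdft1 and -0.24 to 0.38 for Lss after Con A, from -0.56 to 0.10 for Hmgcs1 and -0.22 to 0.15 for Fdft1 with hWJ-MSCs against PBS, and from -0.24 to 0.16 for Fdft1 and -0.14 to 0.14 for Dhcr7 with hWJ-MSCs against control. Adjusted p over the alternatives was 0.0054 to 0.0569 for Sqle and 0.0019 to 0.0570 for Cyp51 after Con A. Of 735 values of the other named genes, 10 lost a call, 0 gained one and 0 changed sign, with the same limit.

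After Con A, a fold change above 2 called 0 of the 8 enzymes and 2391 genes in place of 4379, and leaving out a mouse called 0 to 3 enzymes, with 1 without control mouse 1, 0 without control mouse 2 and 1 without Con A + PBS mouse 4. With hWJ-MSCs against PBS, the unadjusted p called 1 enzyme, Idi1, and 1697 genes in place of 969. A fold change above 2 called 353 genes and no fold threshold 1485. Leaving out a mouse called 0 to 1 enzymes, the 1 being Dhcr7 without Con A + hWJ-MSCs mouse 4, and 7 to 1575 genes, with 7 without Con A + PBS mouse 1 or Con A + hWJ-MSCs mouse 3, 18 without Con A + hWJ-MSCs mouse 2, 285 without Con A + PBS mouse 4, 506 without Con A + hWJ-MSCs mouse 1, 563 without Con A + PBS mouse 3 and 1575 without Con A + PBS mouse 2. Against control, a fold change above 2 called 1539 genes and no fold threshold 4604 in place of 3015, and leaving out a mouse called 0 to 1 enzymes, the 1 being Cyp51 without control mouse 3. The cause was not tested. The planned count test was not run because it needs raw counts.

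Deviations from the group means correlated between -0.118 and 0.375 for mice with the same replicate number. Mice with different numbers were not compared in this way, so these values do not show whether the mice were paired. With the replicate number as a block, 2, 0 and 0 enzymes were called in the 3 comparisons, as without it, and 4429, 1297 and 3080 genes. Depth is unknown, and how it limits these values cannot be read from the scores.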
